A study of Caenorhabditis elegans with 36 samples.

Results

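The genomic sites of HDA-1 under mitochondrial stress were compared between worms with control RNAi and worms with *dve-1* RNAi. The members were the peaks of 2 deposited lists: HDA-1 with control and *atp-2* RNAi (6634 peaks) and HDA-1 with *dve-1* and *atp-2* RNAi (9862 peaks). They are 16496 of the 57748 peaks in the 8 lists of the series. A peak of one list was matched when it shared at least 1 bp with a peak of the other. A control + *atp-2* peak with no match is called lost, a *dve-1* + *atp-2* peak with no match is called new, and the others are called kept. A peak is a stretch of genome in which chromatin immunoprecipitation (ChIP) gave more sequence than its input, and its start and end are all that the lists record.

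The worms of the HDA-1 lists carried HDA-1::GFP under the *hda-1* promoter (hda-1p::hda-1::gfp) and the temperature-sensitive germline mutation glp-4(bn2). The DVE-1 lists used beside them came from other worms, with DVE-1::GFP under the *dve-1* promoter (dve-1p::dve-1::gfp) and the same glp-4(bn2) mutation, on L4440, L4440 + *atp-2* or *hda-1* + *atp-2* bacteria. The worms of the 2 compared lists were raised at 20 °C on RNAi bacteria to day 1 of adulthood, with empty-vector (L4440) or *dve-1* bacteria first and *atp-2* bacteria added later, and chromatin of whole worms was pulled down through the GFP tag. The control + *atp-2* list came from 2 ChIP and 2 input samples, and the *dve-1* + *atp-2* list from 3 and 3. The transgene was overexpressed, no library came from worms without a tag, and 1 list stood for each condition, so no spread between samples and no test could be had. In whole worms, fewer cells with a site and weaker occupancy per cell cannot be told apart. In worms with this transgene, the study reports a strong fall of HDA-1::GFP protein with *dve-1* RNAi given without *atp-2* RNAi. The amount of tagged protein may thus differ between the 2 lists, and its part in the results was not tested. The labels and run names of the *dve-1* samples, with or without *atp-2* RNAi, set them apart as a separate set of libraries. The effect of *dve-1* RNAi and that of the library set thus cannot be told apart. Intervals are 95% Wilson intervals over peaks or genes and cover counting error only.

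HDA-1 is a class I histone deacetylase, an enzyme that removes acetyl groups from histones and works in complexes such as NuRD. DVE-1 is a homeodomain protein related to mammalian SATB1 that takes part in the mitochondrial unfolded protein response (UPRmt), the program by which nuclear genes for mitochondrial chaperones and proteases respond to damaged mitochondria. *atp-2* encodes a subunit of the mitochondrial ATP synthase, and its knockdown switches this program on, largely in the intestine.

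Sequence at the centre of lost peaks is shown first, because a GATA-type word, the kind of sequence bound by the intestinal GATA factor ELT-2, was in a larger share of lost than of kept peaks among those under 1000 bp, where most lost peaks with the word lie. The word CTTATCA, or TGATAAG on the other strand, stands in capitals. The 5 windows are the central 200 bp of the lost peaks at the 5′ ends of *irg-1*, an infection response gene, *ugt-64* and *ugt-21*, which encode UDP-glucuronosyltransferases, *vit-4*, a yolk protein gene, and *nhr-170*, a nuclear hormone receptor gene. They were chosen after their values were seen, as the windows of the lost peaks at genes of 12 gene lists that held the word and touched no UTR. The *ugt-21* peak, at 3430 bp, is wider than 1000 bp, and its midpoint lies in an exon, 775 bp from a 5′ end.

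irg-1, chrV:3523361-3523560, plus strand: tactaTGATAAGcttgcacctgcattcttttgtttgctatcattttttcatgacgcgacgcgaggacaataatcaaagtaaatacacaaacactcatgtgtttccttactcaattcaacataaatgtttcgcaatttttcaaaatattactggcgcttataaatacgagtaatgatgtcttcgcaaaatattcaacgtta
ugt-64, chrV:3505958-3506157, plus strand: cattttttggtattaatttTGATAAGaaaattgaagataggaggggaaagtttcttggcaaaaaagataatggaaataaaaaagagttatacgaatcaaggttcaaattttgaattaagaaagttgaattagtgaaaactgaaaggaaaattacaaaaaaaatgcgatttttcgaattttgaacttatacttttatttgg
ugt-21, chrIV:9500986-9501185, plus strand: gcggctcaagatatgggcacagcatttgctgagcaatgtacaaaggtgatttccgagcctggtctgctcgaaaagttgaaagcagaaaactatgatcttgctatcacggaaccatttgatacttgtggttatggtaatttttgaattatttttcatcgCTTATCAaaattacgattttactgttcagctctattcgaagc
vit-4, chrX:3564085-3564284, plus strand: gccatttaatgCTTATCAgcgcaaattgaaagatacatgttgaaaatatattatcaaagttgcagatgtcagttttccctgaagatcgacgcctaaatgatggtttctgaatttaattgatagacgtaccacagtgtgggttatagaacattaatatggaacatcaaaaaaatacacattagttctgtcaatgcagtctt
nhr-170, chrV:18800864-18801063, plus strand: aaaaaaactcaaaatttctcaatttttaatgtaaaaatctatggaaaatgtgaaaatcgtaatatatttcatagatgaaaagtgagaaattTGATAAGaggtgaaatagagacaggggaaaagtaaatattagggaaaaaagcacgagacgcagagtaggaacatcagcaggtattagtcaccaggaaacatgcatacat

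For comparison, the same central 200 bp are shown for the widest lost and the widest new peak over a protein-coding 5′ end and outside UTRs. The lost one lay over B0244.7 and its neighbours and the new one over *frm-3*, which encodes a FERM-domain protein. Neither held any of the 6 words searched. All sequences are from the RefSeq copy of WBcel235.

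B0244.7 (lost), chrIII:5733751-5733950, plus strand: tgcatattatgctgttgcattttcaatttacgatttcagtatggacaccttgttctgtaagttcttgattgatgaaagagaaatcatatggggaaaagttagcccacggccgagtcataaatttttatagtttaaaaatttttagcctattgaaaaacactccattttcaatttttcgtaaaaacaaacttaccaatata
frm-3 (new), chrX:11574660-11574859, plus strand: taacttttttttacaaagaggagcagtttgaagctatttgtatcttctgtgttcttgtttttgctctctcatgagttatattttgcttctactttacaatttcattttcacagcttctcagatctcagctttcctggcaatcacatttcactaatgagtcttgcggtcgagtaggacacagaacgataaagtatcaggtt

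Of the control + *atp-2* peaks, 795 were lost (12%, interval 11.2% to 12.8%) and 5839 kept. Of the *dve-1* + *atp-2* peaks, 6718 were kept and 3144 were new (31.9%, interval 31.0% to 32.8%). Lost peaks were narrow, with a median of 617 bp against 1194 bp for kept peaks of the same list. New peaks were narrower still, with a median of 454 bp against 874 bp for the kept peaks of the *dve-1* + *atp-2* list. The share lost was 24.6% among peaks under 500 bp and 0.395% (2 of 506) among peaks of 5000 bp or more. The share new ran from 45.8% to 1.79% (6 of 336) over the same widths. A match needs 1 bp, which a wide peak shares more easily, so a fall with width is in part built into the rule. Lost peaks were not just shifted. The median gap from a lost peak to the nearest *dve-1* + *atp-2* peak was 4225 bp, and 6 of the 795 had one within 500 bp. For new peaks the median gap was 4447 bp, and 22 of the 3144 had a control + *atp-2* peak within 500 bp. The share lost depended on what counted as a match. It was 27% when at least 50% of a peak had to be covered, 28.2% over peaks of at least 500 bp and 31.9% against the widest 6634 peaks of the *dve-1* + *atp-2* list.

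**Figure D1:**
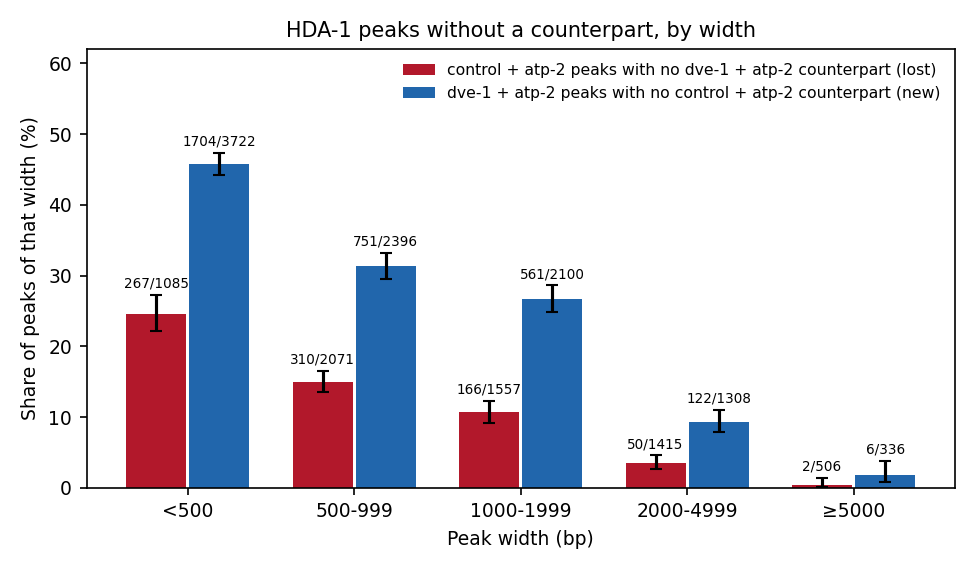
Share of HDA-1 peaks without a counterpart in the other list (y axis, percent) by peak width (x axis, bp), for lost peaks (red) and new peaks (blue). Bars carry 95% Wilson intervals and the counts behind them. The share lost fell from 24.6% under 500 bp to 0.395% at 5000 bp or more, and the share new from 45.8% to 1.79%. With a match at 1 bp, a fall with width is in part built into the rule.

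Both lists covered nearly the same amount of genome, 12537091 bp in the control + *atp-2* list and 12515423 bp in the *dve-1* + *atp-2* list, and 8748519 bp lay in both. Most of the sequence that dropped out did so inside peaks that counted as kept. Of the 3788572 bp found only under control + *atp-2*, 3089256 bp lay in kept peaks and 699316 bp in lost ones. On the other side, 2232116 of the 3766904 bp found only under *dve-1* + *atp-2* lay in new peaks. A kept control + *atp-2* peak had a median of 79.4% of its width still covered, and 997 of the 5839 (17.1%) had under 50% of it. Kept peaks also broke up. Under *dve-1* + *atp-2*, 817 control + *atp-2* peaks (14%) were matched by 2 or more peaks, while 120 *dve-1* + *atp-2* peaks (1.79%) joined 2 or more control + *atp-2* peaks. The most pieces, 6, were at *far-6*, *fat-1* and *fat-2* (IV:13311684 to 13328149). *fat-1* and *fat-2* encode fatty acid desaturases.

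The widest lost peak (II:14864392 to 14870854, 6463 bp) lay at *gpx-2*, which encodes a glutathione peroxidase, and R05H10.3. The second (III:5731246 to 5736456, 5211 bp) lay at B0244.7, B0244.9, B0244.10 and B0244.17, and the third (II:5747403 to 5752017, 4615 bp) over *ifb-2*, which encodes an intermediate filament of the intestinal terminal web. The fourth (II:1158368 to 1162931, 4564 bp) had no protein-coding 5′ end within 500 bp, and the fifth (IV:1633396 to 1637773, 4378 bp) lay at Y41D4B.6. All 5 overlapped a DVE-1 peak listed under control + *atp-2* RNAi, over 3356 to 5211 bp, and *ifb-2* over 4459 bp. In HDA-1 under *dve-1* RNAi alone, 3 of the 5 had no covered base and the other two 224 and 633 bp.

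Of the 5 widest new peaks, 4 had no covered base in the DVE-1 list under control + *atp-2* RNAi. The widest (V:19996581 to 20003300, 6720 bp) had no protein-coding 5′ end within 500 bp, and 5480 bp of it were listed under *dve-1* RNAi alone. The second (X:11571694 to 11577826, 6133 bp) lay at *frm-3*. The third (II:10987642 to 10993527, 5886 bp) and the fifth (X:3887474 to 3892584, 5111 bp) also lay away from protein-coding 5′ ends. The exception was the fourth, at T19D12.5 (II:6632194 to 6637454, 5261 bp), where DVE-1 was listed over 4213 bp and no other HDA-1 list had a peak.

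Among kept peaks, the one that dropped most sequence lay at *dnj-24*, which encodes a DnaJ-domain protein (III:5415012 to 5424804), where 7408 of 9793 bp were no longer listed. It was followed by peaks at *lsm-6* and *ubc-3* (6906 bp dropped), at *nid-1*, the nidogen gene (6309 bp), at *pek-1* and *slo-2*, a kinase of the ER stress response and a potassium channel (5664 bp), and at *ugt-62*, *mrps-34* and *cisd-3.1* (5625 bp). The *dve-1* + *atp-2* peaks that added most sequence around a kept site added between 4487 and 7976 bp. Those at *istr-1* (5937 bp added) and F55C7.2 (4487 bp) had a protein-coding 5′ end within 500 bp, and the other three did not.

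The HDA-1 lists without *atp-2* RNAi showed where lost and new peaks stood before the stress. Under control RNAi alone, 475 of the lost peaks (59.7%, interval 56.3% to 63.1%) were listed, against 95.5% of kept peaks. Under *dve-1* RNAi alone, which shares the library set of the *dve-1* + *atp-2* list, 62 lost peaks (7.80%) were listed and 733 (92.2%) were not, against 89.8% listed among kept peaks. By both lists together, 419 lost peaks (52.7%) were in the control list and not in the *dve-1* list, and 314 (39.5%) were listed under control + *atp-2* alone. New peaks had the opposite pattern. Of the 3144, 1963 (62.4%) were listed under *dve-1* RNAi alone and 849 (27%) under control RNAi alone. A total of 1283 new peaks (40.8%) were in both *dve-1* lists and neither control list, and 1012 (32.2%) in the *dve-1* + *atp-2* list alone. For most lost and new peaks with a second listing, that listing thus followed *dve-1* RNAi and the library set, whether *atp-2* RNAi was given or not.

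DVE-1 peaks were listed at lost and kept HDA-1 sites but seldom at new ones. New peaks lie outside the HDA-1 control + *atp-2* list by definition, and 5503 of its 6634 peaks were on a DVE-1 peak. A low share at new peaks is therefore not independent of how they are defined. Under control + *atp-2* RNAi, 680 of the lost peaks (85.5%, interval 82.9% to 87.8%), 4823 of the kept peaks (82.6%) and 358 of the new peaks (11.4%, interval 10.3% to 12.5%) overlapped a DVE-1 peak. Read the other way, 12.4% of the control + *atp-2* peaks on a DVE-1 peak were lost and 10.2% of those off one. Width moved with this comparison, since HDA-1 peaks on DVE-1 peaks were wider. Among peaks under 500 bp, 30.4% of those on a DVE-1 peak were lost and 15.6% of those off one, and from 500 to under 1000 bp 16% and 9.39%. In the *dve-1* + *atp-2* list, 6.08% of the peaks on a DVE-1 peak were new and 70.1% of those off one. Under control RNAi without *atp-2*, DVE-1 was listed at 32.6% of lost and 63.0% of kept peaks. With *hda-1* + *atp-2* RNAi, DVE-1 was listed at 78.6% of lost peaks and at 31.2% of new peaks. The DVE-1 samples with *hda-1* RNAi are numbered beside the *dve-1* samples, and those with control RNAi beside the HDA-1 control samples. RNAi and library set thus cannot be told apart between the DVE-1 lists either.

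**Figure D2:**
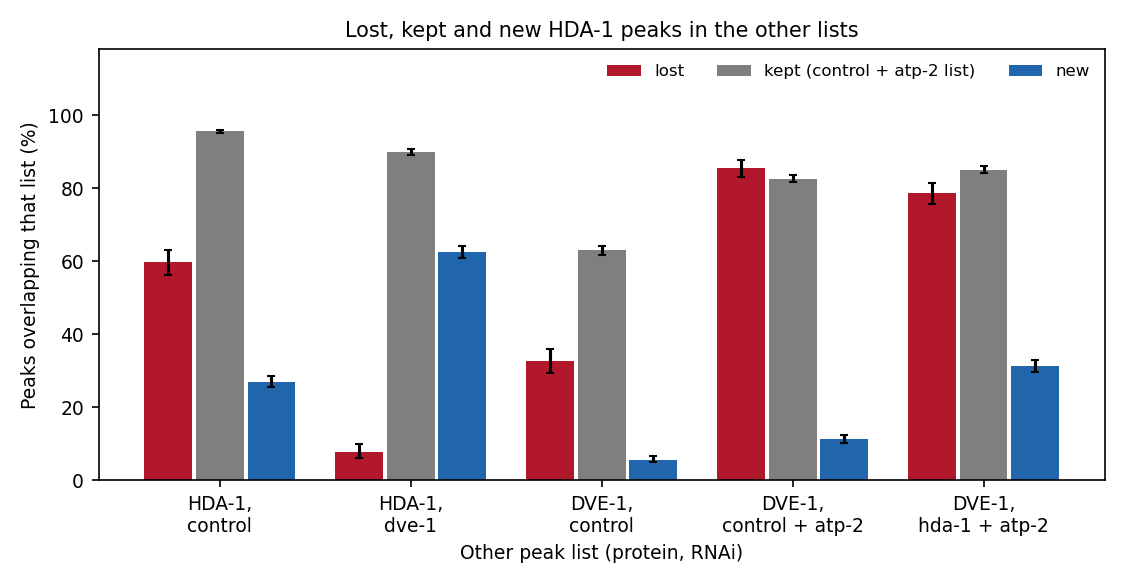
Share of lost (red), kept (grey) and new (blue) HDA-1 peaks that overlap a peak of 5 other lists (x axis, protein and RNAi; y axis, percent), with 95% Wilson intervals. Lost peaks were at 7.80% in the HDA-1 list under *dve-1* RNAi alone and at 85.5% in the DVE-1 list under control + *atp-2* RNAi, where new peaks were at 11.4%.

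A larger share of lost than of kept midpoints lay near a 5′ end, while the share of new midpoints was near that of the genome. Kept peaks are wider, and a wide peak can cover a 5′ end far from its midpoint. This comparison was not split by width. The midpoint of 50.4% of lost peaks (interval 47.0% to 53.9%) was within 500 bp of the 5′ end of a protein-coding gene, against 40.0% of kept peaks of the same list, 21.1% of new peaks (interval 19.7% to 22.6%) and 18.8% of points spaced 100 bp apart over the genome. The median distance to a 5′ end was 483 bp for lost, 753 bp for kept and 1913 bp for new peaks, and 1617 bp for the genome. Away from 5′ ends, introns held 14.7% of lost and 27.9% of new midpoints, and stretches between genes 25.4% and 36%. Genes for tRNAs were overlapped by 15 lost (1.89%), 331 kept (5.67%) and 18 new peaks (0.573%). Genes for snoRNAs, which guide the modification of other RNAs, were overlapped by 2 lost (0.252%), 163 kept (2.79%) and 11 new peaks (0.350%). Of all control + *atp-2* peaks, 12% were lost and 88.0% kept. A wider peak can overlap more of any feature, and these shares were not split by width.

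The chromosomes differed in both directions. On X, 7.18% of the control + *atp-2* peaks were lost and 37.0% of the *dve-1* + *atp-2* peaks were new, against 13.2% and 30.3% on the autosomes. Chromosome V had the highest share lost, 18.1%. X held 27.7% of new peaks and 12.1% of lost peaks on 17.7% of the sequence.

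The central 200 bp of peaks were searched for 6 words on both strands, and a match here is a description of the letters, not a bound site. CTTATCA was in 18.2% of lost peaks (interval 15.7% to 21.1%), 6.27% of kept peaks (interval 5.67% to 6.92%) and 5.79% of new peaks. It was in 3.44% of all 200 bp windows of the genome and in 5.93% of windows around protein-coding 5′ ends. Lost peaks are narrow, so the share was also taken by width. Under 500 bp it was 25.1% in lost and 5.50% in kept peaks, from 500 to under 1000 bp 20.3% and 9.31%, and from 1000 to under 2000 bp 4.82% and 4.39%, where the intervals overlapped. From 2000 to under 5000 bp it was 14% in lost (7 of 50, interval 6.95% to 26.2%) and 5.35% in kept peaks. Among midpoints within 500 bp of a 5′ end it was 21.2% in lost and 6.46% in kept peaks. Of the 145 lost peaks with the word, 142 lay on a DVE-1 peak, where the word was in 20.9% of lost and 7.30% of kept peaks. Over whole peaks, CTTATCA stood 0.789 times per kb in lost peaks, 0.340 in kept peaks, 0.294 in new peaks and 0.186 in the genome. With only peaks of at least 500 bp in both lists, the word was in 11.4% of lost and 5.52% of kept peaks.

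The other five words did not set lost peaks apart to this degree. CTGCGTCTC was in 3.52% of lost, 5.24% of kept and 4.74% of new peaks, against 0.791% of genome windows. TTGCGAAA was in 3.65%, 3.55% and 1.62%, against 1.48% of genome windows. CACGTG was in 4.65%, 4.69% and 5.25%, against 3.32%. TGACTCA was in 3.52%, 2.69% and 1.56%, against 1.82%, and TGACGTCA in 1.89%, 1.42% and 1.69%, against 1.12%. Around protein-coding 5′ ends these words were in 1.33%, 1.87%, 4.36%, 2.06% and 0.801% of windows. The median GC content of the central 200 bp was 34% in lost, 37.5% in kept and 42% in new peaks, against 35% in the genome.

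**Figure D3:**
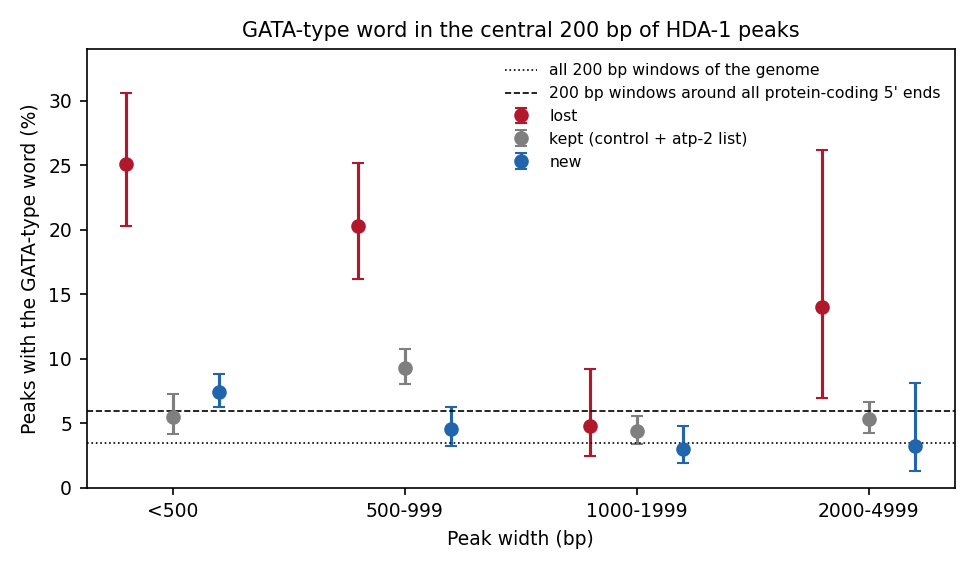
Share of HDA-1 peaks whose central 200 bp hold CTTATCA on either strand (y axis, percent) by peak width (x axis, bp), for lost (red), kept (grey) and new (blue) peaks, with 95% Wilson intervals. Lines mark the share in genome windows (3.44%) and around protein-coding 5′ ends (5.93%). Lost peaks stood above kept ones under 500 bp (25.1% and 5.50%) and from 500 to under 1000 bp (20.3% and 9.31%).

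Genes were given a status by the peaks within 500 bp of their 5′ end. Of 19973 protein-coding genes, 5199 (26%) had a peak in both lists and are called kept, 1043 (5.22%) had one under control + *atp-2* RNAi only and are called lost, and 1157 (5.79%) had one under *dve-1* + *atp-2* RNAi only and are called gained. Of the 6242 genes with a control + *atp-2* peak, 16.7% were thus lost, and of the 6356 with a *dve-1* + *atp-2* peak, 18.2% were gained. At 649 of the lost genes (62.2%) the whole peak was lost, and at the others the peak still met a *dve-1* + *atp-2* peak, but none lay within 500 bp of the 5′ end. At 976 of the gained genes (84.4%) the whole peak was new. DVE-1 was listed under control + *atp-2* RNAi at 837 of the lost genes (80.2%), 86.2% of the kept genes and 192 of the gained genes (16.6%). On X, 11.3% of the genes with a control + *atp-2* peak were lost and 25.1% of those with a *dve-1* + *atp-2* peak were gained, against 17.7% and 16.7% on the autosomes.

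Of the UPRmt genes, *hsp-6*, *hsp-60*, *atfs-1*, *ubl-5* and *dnj-10* kept a peak that was narrower at the 5′ end. The same held for 3696 of all 5199 kept genes (71.1%). At *dve-1*, also of the UPRmt, the peak was wider (2945 and then 3180 bp), with 38.4% of the first still listed. At *hsp-6*, which encodes the mitochondrial HSP70 chaperone, the peak at the 5′ end ran from V:4818200 to 4827570 (9371 bp) under control + *atp-2* RNAi and from 4823071 to 4827346 (4276 bp) under *dve-1* + *atp-2* RNAi, and with a further piece 67.6% of it stayed listed. At *hsp-60*, the mitochondrial chaperonin gene, it was 7606 bp and then 1952 bp (41.1% still listed, in 2 pieces), and at *atfs-1*, which encodes the main transcription factor of the UPRmt, 7600 bp and then 1845 bp (58.9% still listed, in 3 pieces). At *ubl-5*, a ubiquitin-like cofactor of DVE-1, it was 2173 bp and then 826 bp (73.9%, in 2 pieces), and at *dnj-10*, a mitochondrial DnaJ gene, 498 bp and then 279 bp (56%). The median over all kept genes was 78.9% still listed. The 5 genes with a narrower peak were thus listed under both conditions, and at each of the 5 less of the peak was listed with *dve-1* RNAi. At *hmgs-1*, the HMG-CoA synthase gene of the mevalonate pathway, the width hardly moved, at 1776 and 1711 bp, and at *hsp-4*, the ER chaperone BiP, it grew from 1609 to 4514 bp.

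Of 26 genes from among those the study used as RNAi targets, reporters, tagged proteins, strain markers or qPCR targets, 18 were kept, 3 lost, 0 gained and 5 had no peak. The lost ones were *irg-1* (V:3523224 to 3523697, 474 bp), *nhr-115*, a nuclear hormone receptor gene (V:2292349 to 2292777, 429 bp), and *atp-2* itself (III:5228035 to 5228527, 493 bp). *irg-1* and *nhr-115* had no HDA-1 peak under control or *dve-1* RNAi alone and had a DVE-1 peak under control + *atp-2* RNAi. *atp-2* had an HDA-1 peak under both of the former and no DVE-1 peak. The kept genes included *hsp-16.2* (2895 and then 2330 bp), whose promoter drives the study's heat shock reporter. They also included the qPCR targets *cyp-33C8* (4661 and 3845 bp), *cdr-4*, a cadmium-responsive gene (4330 and 3228 bp), and *pgp-1*, a P-glycoprotein transporter gene (2285 and 444 bp). *cox-5B*, a cytochrome c oxidase subunit, was wider with *dve-1* RNAi (5302 and 6888 bp), as were the polyubiquitin gene *ubq-1* (7536 and 8287 bp) and *ubq-2* (787 and 1545 bp). *tars-1*, a tRNA synthetase gene (2066 and 1596 bp), *ipla-3* (1204 and 602 bp) and *glp-4* (805 and 400 bp) were narrower. The *dve-1* gene had a peak of 2945 bp and then one of 3180 bp at its 5′ end. *hda-1*, M04C3.2, *cua-1*, *djr-1.2* and *odr-1* had none. Of 4 further qPCR targets, looked up after the other values were seen, *mul-1* lost a peak of 577 bp, *lys-2* kept one (6489 and 1463 bp), and *irg-6* and *pals-23* had none.

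**Figure D4:**
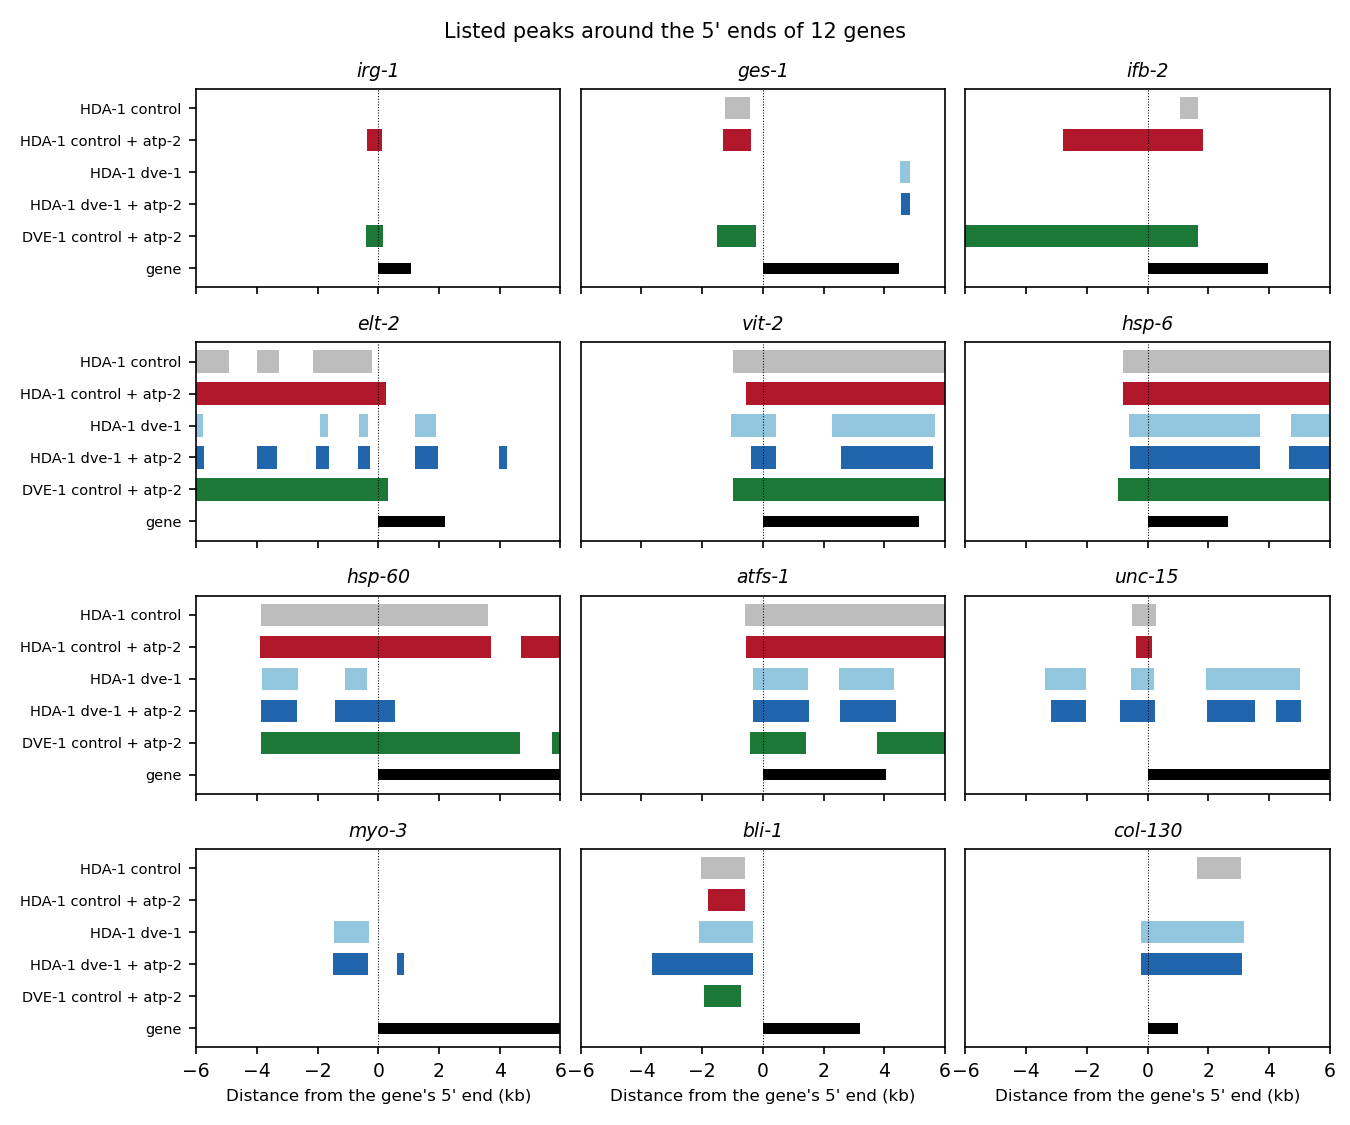
Listed peaks (coloured bars) from 4 HDA-1 lists and 1 DVE-1 list around the 5′ ends of 12 genes, as distance from the 5′ end in kb, with the gene running to the right (black) and peaks shown up to 6 kb on either side. At *irg-1* and *ges-1* the control + *atp-2* peak has no counterpart near the 5′ end under *dve-1* + *atp-2*, at *hsp-6*, *vit-2* and *elt-2* it is broken into narrower peaks, and at *myo-3* and *col-130* peaks stand in the *dve-1* lists.

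A pair of detoxification families had shares lost whose intervals lay above the 16.7% of all genes with a control + *atp-2* peak. Of 67 UDP-glucuronosyltransferase genes, whose products attach sugars to foreign compounds, 15 were kept, 14 lost, 3 gained and 35 had no peak, so that 48.3% (interval 31.4% to 65.6%) of those with a control + *atp-2* peak were lost. Of 74 cytochrome P450 genes, which encode oxidising enzymes of drug metabolism, 19 were kept, 14 lost and 3 gained (42.4% lost, interval 27.2% to 59.2%). All 28 lost genes of both families had a DVE-1 peak under control + *atp-2* RNAi, none had an HDA-1 peak under *dve-1* RNAi alone, and 16 had one under control RNAi alone. Over all lost genes these shares were 80.2%, 10.1% and 64.6%. The 28 genes rested on 12 peaks for the P450s and 14 for the UDP-glucuronosyltransferases, so that neighbours such as *cyp-14A1* and *cyp-14A2* share 1 peak. Among them, *ugt-21* (3430 bp), *ugt-24* (1836 bp) and *cyp-34A6* (1544 bp) lost a whole peak, while peaks of 3454 bp at *ugt-6*, 2771 bp at *ugt-47*, 3692 bp at *cyp-14A1* and *cyp-14A2* and 1451 bp at *cyp-37A1* were cut back from the 5′ end. *cyp-34A2* (1719 bp) and *ugt-25* (1165 bp) gained the widest peaks of these families.

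Of 49 glutathione S-transferase genes, 18 were kept, 6 lost and 5 gained (25% lost of those with a peak, interval 12% to 44.9%), and of 49 ABC transporter genes, 20 were kept, 6 lost and 1 gained. The intervals of both lists hold the 16.7% of all genes. The lost ones included *gst-15* (7582 bp), *gst-6* (4067 bp) and *pgp-2* (3304 bp), at each of which the peak was cut back rather than lost, and *gst-38* (673 bp) and *pgp-3* (1211 bp), at which it was lost whole. Of the gained genes, *gst-17* and *gst-18* share 1 peak of 1579 bp, and *pgp-14* had one of 259 bp. Nuclear hormone receptor genes, a large family of ligand-gated transcription factors in the worm, had 86 kept, 25 lost and 8 gained of 269 (22.5% lost, interval 15.7% to 31.1%). *nhr-34* and *nhr-40* had the widest peaks among the lost (11132 and 6661 bp, both cut back), and *nhr-85* (2629 bp) among the gained.

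Immune gene groups were mixed. For each of the immune lists below, the intervals of the shares lost and gained held the 16.7% and 18.2% of all genes with a peak. C-type lectin genes, often induced by pathogens, had 23 kept, 9 lost and 8 gained of 240, with *clec-91* (6225 bp) among the lost and *clec-86* (2156 bp) among the gained. Lysozyme and saposin-like genes, which encode antimicrobial proteins, had 14 kept, 5 lost and 6 gained of 47, with *spp-25* (6280 bp) lost and *spp-10* (2350 bp) gained. Of the 8 genes named *irg*, 3 were kept and 2 lost, *irg-3* (539 bp) and *irg-1*. Of the 13 genes of the p38 immune pathway, 10 were kept and none was lost or gained.

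Other lists with genes active in the intestine had few members with a peak, and are read against the 16.7% lost of all genes with a control + *atp-2* peak. Of the 6 vitellogenin genes, which encode yolk proteins made in the intestine, 4 were kept and *vit-4* (566 bp) and *vit-3* (472 bp) were lost. These are near-identical copies, so that reads kept only when uniquely mapped may place them uncertainly. Aspartyl and cysteine protease genes, mostly digestive or lysosomal, had 14 kept, 4 lost (22.2% of those with a peak, interval 9.001% to 45.2%) and 1 gained of 28, and *cpr-5* and *cpr-8* lost 1 shared peak of 2299 bp. Fatty acid genes had 18 kept, 4 lost (18.2%, interval 7.31% to 38.5%) and 2 gained of 41, with *acs-5* (7900 bp) and *acs-22* (4229 bp), both acyl-CoA synthetases, cut back. Of the 11 genes for GATA factors and their relatives, *elt-7*, an intestinal GATA factor, lost a peak of 807 bp, *elt-6*, a hypodermal one, gained a peak of 353 bp, 2 were kept and 7 had none. Of 6 cadmium-responsive genes, 3 were kept and *cdr-7* gained a peak of 267 bp.

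For each of the mitochondrial lists below, the interval of the share lost held the 16.7% of all genes. Of 43 oxidative phosphorylation genes, 28 were kept, 3 lost (*atp-2*, *sdhb-1* and *gas-1*) and 2 gained (*ucr-2.3* and *nuo-6*). *sdhb-1* and *gas-1*, subunits of complex II and complex I, lost peaks of 426 and 328 bp. Mitochondrial ribosomal protein genes had 32 kept, 4 lost and 2 gained of 70, and import genes 7 kept and 1 lost of 13, the lost one being *tin-44* (698 bp). Of 14 mitochondrial chaperone and protease genes, 9 were kept and the AAA protease gene *ppgn-1* (655 bp) was lost. Of 20 regulators of the mitochondrial stress response, 14 were kept, none lost, and *baz-2*, a bromodomain gene, gained a peak of 1504 bp.

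Groups of basic cell functions are read against the 16.7% lost and 18.2% gained of all genes with a peak. Of 81 cytosolic ribosomal protein genes, 74 were kept, *rpl-16* was lost and *rps-2* gained, so that 1.33% (interval 0.236% to 7.17%) of those with a peak were lost. Of 20 vacuolar ATPase genes 18, and of 16 ER stress genes 14, were kept, with none lost or gained in either. Proteasome genes had 27 kept, 2 lost and 2 gained of 33, tRNA synthetase genes 18, 3 and 1 of 32, with *iars-1* (1182 bp) lost, and cytosolic heat shock genes 10 kept and 2 gained of 14, the transcription factor gene *hsf-1* (281 bp) and *hsp-12.6* (267 bp). Among 17 genes for NuRD, MEC and Sin3 partners of HDA-1, 12 were kept, *saeg-1* (1892 bp) lost and the histone-binding protein gene *rba-1* (1741 bp) gained, both with a peak that shifted. Of 11 other histone deacetylase genes, 4 were kept and none changed.

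Some gene lists had a share gained whose interval lay above that of all genes. They were the cuticle collagen, *ceh* homeobox, neuropeptide and insulin-like, and histone genes, the last with a lower bound of 18.5%. The body wall muscle and hypodermis marker lists, given below, were also among them, with only 4 and 2 genes with a *dve-1* + *atp-2* peak. The tissue in which these peaks lie was not tested. Of 175 cuticle collagen genes, expressed in the hypodermis under the cuticle, 25 were gained, 23 kept and 1 lost, so that 52.1% (interval 38.3% to 65.5%) of those with a *dve-1* + *atp-2* peak were gained against 18.2% of all genes. They rested on 25 peaks. Of the 25 gained genes, 19 had only wholly new peaks, 3 had a DVE-1 peak and 14 had an HDA-1 peak under *dve-1* RNAi alone. Over all gained genes these shares were 84.4%, 16.6% and 58.9%, so these traits are not particular to the collagens. *col-130* had the widest (3328 bp, IV:12425416 onward). *bli-1* and *col-39* share a peak of 3320 bp, and there a control + *atp-2* peak already ended at -590 bp from the 5′ end of *bli-1* and was widened. Of 63 homeobox genes of the *ceh* class, which specify cell fates and many neuron types, 9 were gained, 11 kept and 1 lost (45.0% gained of those with a peak, interval 25.8% to 65.8%). They included *ceh-34* (1705 bp), *ceh-18* (1570 bp) and *ceh-32* (1001 bp). Of 140 neuropeptide and insulin-like genes, 10 were gained, 11 kept and 2 lost (47.6%, interval 28.3% to 67.6%), with *nlp-12* (1767 bp), *nlp-25* (1674 bp) and *nlp-33* (1390 bp) among the gained. Of the 72 histone genes, 6 were gained on 3 peaks, 10 kept and 1 lost, and these are multicopy genes in which unique mapping leaves most copies unlisted. Of 260 microRNA genes, taken by the 5′ end of the hairpin, 29 were gained, 89 kept and 10 lost, and the gained rested on 24 peaks.

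**Figure D5:**
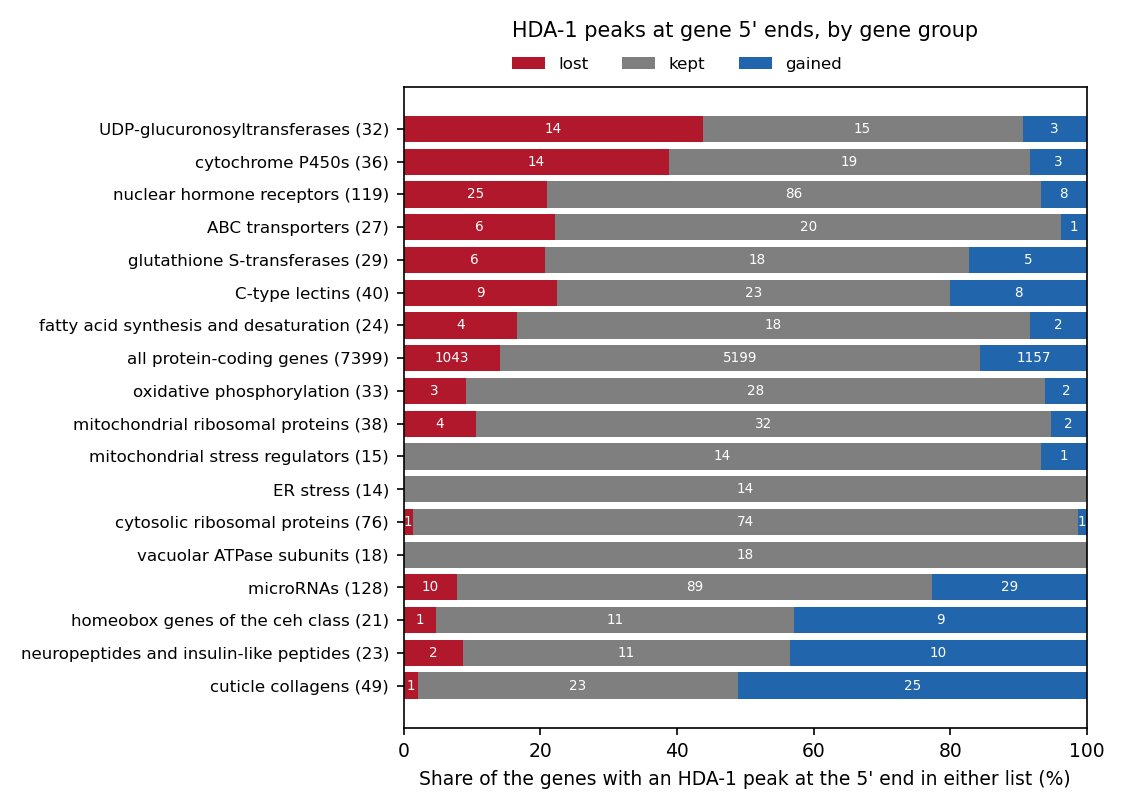
Genes with an HDA-1 peak within 500 bp of the 5′ end in either list, by gene group (y axis, number of such genes in parentheses), as the share lost (red), kept (grey) and gained (blue) on the x axis, in percent. Numbers in the bars are genes. UDP-glucuronosyltransferases (14 of 32 lost) and cuticle collagens (25 of 49 gained) stand at the ends, with 1043 lost and 1157 gained of 7399 among all protein-coding genes.

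Marker genes of tissues did not all change in the same direction. All 5 intestine markers had a peak under control + *atp-2* RNAi and a DVE-1 peak, and each was lost or narrower with *dve-1* RNAi. Of all genes with a control + *atp-2* peak 16.7% were lost, and 71.1% of all kept genes were narrower. A DVE-1 peak was at 80.2% of all lost and 86.2% of all kept genes. With 5 markers, intestine genes cannot be set apart from these shares. *ges-1*, the gut esterase gene (926 bp), and *ifb-2* (4615 bp) lost theirs. At *elt-2* the peak at the 5′ end went from 6505 to 374 bp (27.2% of it still listed, in 4 pieces), at *vit-2* from 6809 to 834 bp (56.9%, in 2 pieces) and at *act-5*, the gut microvillus actin gene, from 2354 to 1717 bp (27.4%). For the other tissues, 18.2% of all genes with a *dve-1* + *atp-2* peak were gained. A DVE-1 peak under control + *atp-2* RNAi was at 16.6% of all gained genes. Each of these lists holds 3 or 4 markers, so the counts describe these genes and not the tissues. Of the 4 body wall muscle markers, none had a DVE-1 peak, and *myo-3* (1165 bp), *unc-54* (346 bp) and *hlh-1* (333 bp) gained a peak while *unc-15* went from 554 to 1134 bp. Of the neuron markers, *rab-3* gained a peak of 366 bp, *rgef-1* (524 and 648 bp), *unc-119* (1215 and 1171 bp) and *snb-1* (5503 and 6425 bp) were kept. Of the hypodermis markers, *bli-1* and *col-19* (533 bp) were gained and *dpy-7* and *rol-6* had no peak. Of the pharynx markers, *tnt-4* (255 bp) was gained, and *myo-2* (2752 and 1840 bp) and *pha-4* (4478 and 707 bp) were kept. The 4 germ line markers *pgl-1*, *glh-1*, *glp-1* and *mex-5* had no peak in either list. Peak width and listing are not levels of HDA-1, and the share of each tissue in the chromatin was not measured, so its part in these results was not tested.

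The study's RNA-seq lists of genes induced by *atp-2* RNAi were used as gene sets, by identifier only. They were chosen by the study on RNA of related samples and are not independent evidence of a direction. The sets hold the genes found in the annotation used here, slightly fewer than the study counts. Of the 216 such induced genes that are *dve-1*-dependent in the study, 105 were kept, 46 lost (21.3%, interval 16.36% to 27.2%) and 2 gained. Of the 573 other induced genes, 250 were kept, 39 lost (6.81%) and 31 gained. Among genes with a control + *atp-2* peak, the share lost was 30.5% (interval 23.7% to 38.2%) of the *dve-1*-dependent and 13.5% (interval 10.03% to 17.9%) of the other induced genes, and 16.51% of all remaining genes. Of the 46 lost *dve-1*-dependent genes, 44 had a DVE-1 peak under control + *atp-2* RNAi, against 80.2% of all lost genes. They included the cathepsin B-like gene *cpr-5* (2299 bp), the lectin gene *clec-265* (1499 bp), *cyp-13A6* (970 bp), the mitochondrial elongation factor gene *gfm-1* (840 bp), the heme-related gene *hrg-9* (823 bp), *ugt-48* (718 bp), *tin-44* and *nhr-115*, each with the whole peak lost. At *kreg-1* (6656 bp) and the glutathione peroxidase gene *gpx-7* (2459 bp) a wide peak was cut back. The 2 gained genes were F57B9.3 (1628 bp) and Y9C9A.8 (835 bp).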

How the data were processed

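The authors sequenced ChIP and input libraries of HDA-1::GFP worms, trimmed the reads, mapped them to ce11, kept properly paired reads with a unique position, removed duplicates and called broad peaks. The submitters' processing notes name BWA 0.7.13-r1126, Picard 2.17.6, MACS2 2.1.1 and deepTools 2.4.2. Each condition was deposited as 1 file of peak positions, 3 columns for chromosome, start and end, without the depth of each sample, for which the study states only a minimum. How 2 or 3 samples were combined into a list is not given in the sources used here, and it can change the number and width of peaks between conditions. The positions lie within WBcel235, the same assembly as ce11, and are counted from 1.

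Overlaps, covered bp, distances and word counts were computed in Python 3.11.15 with numpy 2.4.6 and scipy 1.17.1, overlap counts were checked with bedtools 2.31.1 and on simulated peaks, and plots were made with matplotlib 3.10.9. Genes came from the Ensembl release 115 annotation, and sequence from RefSeq, where windows on chromosome I were left out of those printed. Named genes were the study's own genes, the 5 widest lost and new peaks, the 5 kept peaks that dropped or added most, and up to 4 lost and 4 gained members of a list, widest first. Genes and sequences named beyond that rule were chosen after their values were seen. Members and lists were chosen with earlier results of these data known. Of the symbols in the lists, 4 had no match, and the collagen and microRNA lists were corrected for wrong matches after a first count. With 1 list per condition no test was made.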

Additional observations from a re-analysis of the deposited data

How the results depend on the processing

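With at least 50% of a peak covered, lost peaks were 27% and new peaks 37.6%. With lost, kept and new peaks as matched by 1 bp, but at least 50% of each covered by the other list asked for, 76.3% of kept and 8.97% of new peaks were on DVE-1 peaks, 94.5% of lost peaks were absent from the *dve-1* list without *atp-2* RNAi and 56.5% of new peaks present in it. With at least 50% of both peaks covered, lost peaks were 40.3% and new peaks 59.8%. Over peaks of at least 500 bp, lost peaks were 28.2% and new peaks 27.2%, with 1819 lost genes, and the shares on DVE-1 peaks were 82.9% for lost and 12.9% for new peaks. Lost peaks absent from the *dve-1* list were then 87.7%, and new peaks present in it 57.5%. Against the widest peaks of the *dve-1* + *atp-2* list, as many as in the control + *atp-2* list, lost peaks were 31.9% and new peaks 24%, with 2179 lost and 715 gained genes, and 82.7% of lost peaks were on DVE-1 peaks. Allowing a gap of 500 bp or joining peaks within 500 bp left both shares within their intervals. Fewer peaks enter the settings with a minimum width or the widest peaks by construction. Asking for 50% of a peak to be covered can only remove matches. By construction, shares without a match can then only rise, and shares on another list only fall. For any other setting the cause was not tested.

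Chosen after the data were seen, 4 further checks were run. Peaks missing from both *dve-1* lists were 11%, and peaks missing from both control lists 23.3%. Of the UDP-glucuronosyltransferase and P450 genes with a peak, 45.2% were lost, and 60% to 69.4% in 3 other settings, against 16.7% and 29.5% to 34.9% of all genes. Of the collagen genes 52.1% were gained, and 54.8% to 66.7% in those settings. CTTATCA was in 18.2% of lost peaks, and in 11.4% to 12% in 3 other settings, against 5.52% to 6.27% of kept peaks.

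No paired analysis was possible because each condition is 1 pooled list without replicate columns, which also left no sample to drop. The study states a minimum read number for its samples, but the lists carry no depth, so an unlisted site is not a site shown to lack HDA-1.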

Other observations

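Gene families were also taken by the letters before the hyphen of the symbol, wherever 15 or more members had a peak at the 5′ end in either list, a rule set after the data were seen. Of all 7399 genes with a peak in either list, 5199 were kept, 1043 lost and 1157 gained. On the same footing, 39.3% of *fbxa* and 33.3% of *dhs* genes were lost, and 24.1% of *unc* and 30.8% of *pqn* genes gained. No intervals were taken for these families. The *fbxa* genes, which encode F-box proteins of a large and variable worm family, had 36 kept, 24 lost and 1 gained of 170. The 24 lost genes rested on 22 peaks, all 24 had a DVE-1 peak under control + *atp-2* RNAi, and 1 had an HDA-1 peak under *dve-1* RNAi alone. Over all lost genes the last 2 shares were 80.2% and 10.1%. The *dhs* genes, short-chain dehydrogenases, had 12 kept, 6 lost and 0 gained of 30. Among the gained, the *unc* genes, named for uncoordinated movement and acting largely in neurons and muscle, had 39 kept, 2 lost and 13 gained of 94, and none of the 13 had a DVE-1 peak under control + *atp-2* RNAi. The *pqn* genes, which encode proteins with glutamine- and asparagine-rich domains, had 17 kept, 1 lost and 8 gained of 56, and none of the 8 had a DVE-1 peak. Over all gained genes, 16.6% had a DVE-1 peak under control + *atp-2* RNAi.

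Other RNA classes also differed between lost and kept peaks. Annotated ncRNA genes were overlapped by 6.16% of lost, 22.4% of kept and 19.6% of new peaks, and pseudogenes by 4.28%, 1.97% and 1.11%. The median width was 617 bp in lost, 1194 bp in kept and 454 bp in new peaks. These shares were not split by width, and its part in them was not tested.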
